A study of Homo sapiens with 2 samples.

Results

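The genes described here are 8 human genes for the cytosolic factors that elongate and terminate protein synthesis, found by Ensembl ID among the 57820 IDs of the count table. Elongation is covered by EEF1A1, EEF1B2, EEF1D, EEF1G, EEF2 and EIF5A, and termination by GSPT1 and ETF1. The symbols came with the list of IDs, which names its genes directly and sets no threshold on measured values. Fragments from ribosome profiling (Ribo-seq) were counted in 2 libraries of HEK293 cells, an established human embryonic kidney line. Both are controls that received DMSO, the vehicle, over 12 h. The labels place replicate 1 in batch 1 and replicate 2 in batch 2, so replicate and batch cannot be told apart. Cells were lysed with cycloheximide, RNase I trimmed the RNA outside ribosomes, and fragments of 27 to 29 nt were counted per gene. The labelled cell line was not checked against marker genes, because IDs outside the list could not be paired with names here.

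During elongation, eEF1A, a GTPase, carries each aminoacyl-tRNA to the ribosome, and the eEF1B complex exchanges its GDP for GTP. The GTPase eEF2 then moves the ribosome along the mRNA, while eIF5A, the protein that carries hypusine, helps ribosomes through slow peptide bonds and also aids termination. At a stop codon eRF1, encoded by ETF1, recognises the codon and releases the chain together with the GTPase eRF3a, encoded by GSPT1.

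EEF2 took most of the fragments found on these genes, and its share differed between the libraries. It held 62.9% of the fragments on the 8 genes in replicate 1 and 50.9% in replicate 2. EIF5A was second, with 13.7% and 21.8%. EEF1A1, the gene of the tRNA carrier itself, held only 2.57% in both libraries. All 8 genes were above 0 in both libraries.

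Each library total bounds how finely these genes could be counted. Replicate 1 held 865838 fragments and replicate 2 held 611266, so 3 fragments, the limit that a count of 0 allows, correspond to 3.46 and 4.91 CPM (fragments per 1000000 fragments of the library). The 2 highest IDs of the table, ENSG00000210082.2 and ENSG00000211459.2, took 17.6% of replicate 1 and 23.2% of replicate 2, which lowers the CPM of every other ID by an unequal amount. Intervals are 95% exact intervals computed from the counts alone, so they cover counting error only and no other variation between libraries. Copies of a fragment made during amplification cannot be recognised without molecular identifiers, so even the counting error may be larger than shown. Nothing in the labels beyond the batch numbers says that the cells came from separate cultures, so the SD over the 2 libraries may be partly technical.

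The first bases of the transcripts are shown because mRNAs of the translation machinery often start with a terminal oligopyrimidine (TOP) tract, a C at the cap followed by an unbroken run of C and T, through which mTOR signalling controls their translation. Sequences are from RefSeq annotation of GRCh38.p14, found by symbol for 7 of the 8 genes, and EEF1D was not among them. Each window holds 15 bases before the annotated start and the first 15 bases of the transcript, 5′ to 3′ on the sense strand. Capitals mark the longest run of C and T that begins with C, where it has at least 5 bases. Only the sense strand was searched.
EEF1A1, chr6:73521018-73521047, minus strand: gtcgccgtgaacgttCTTTTTCgcaacggg
EEF1B2, chr2:206159880-206159909, plus strand, the second of 2 annotated starts: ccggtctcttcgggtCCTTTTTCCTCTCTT
EEF2, chr19:3985449-3985478, minus strand: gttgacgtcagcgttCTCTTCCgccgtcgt
EEF1G, chr11:62573877-62573906, minus strand: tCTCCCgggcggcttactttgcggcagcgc
ETF1, chr5:138543222-138543251, minus strand, the first of 2 annotated starts: ggcggaggaagtgatgtcacaggccccatg

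In EEF1A1, EEF1B2 and EEF2 the run began exactly at base 1 of the transcript and was 7, 15 and 7 bases long, the run of EEF1B2 reaching the end of the window. The other annotated start of EEF1B2 had no run of 5 bases. In EEF1G a run of 5 bases lay before the annotated start, beginning 14 bases upstream. No run of that length was found at any of the 6 annotated starts of EIF5A, the 2 of GSPT1 or the 2 of ETF1. A run of at least 5 bases anywhere in the window was present for 4 of the 7 genes, where 44.1% of the 27305 RefSeq genes in the table had one. Counted by annotated start, of which these genes have between 1 and 6 each, it was present at 4 of 15 starts, or 26.7%, against 39% of all 35116 starts. The share therefore lay above all genes by gene and below all starts by start. A run that begins at base 1, a criterion chosen after the windows had been seen, was present for 3 of the 7 genes and for 5.14% of all genes, or at 3 of the 15 starts and 4.07% of all starts. A match describes these letters and not a tested regulatory element.

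Values below are fragments per gene and were not divided by coding length, for which no table was used here. They state how many fragments were assigned to each gene, a number that a long coding sequence raises. Which of these fragments came from translating ribosomes was not tested. The values give no density of ribosomes along an mRNA. The order of the genes is therefore an order of fragment numbers. RNA-seq of the same cells was not analysed here, so mRNA abundance and translation per mRNA cannot be told apart.

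**Figure D1:**
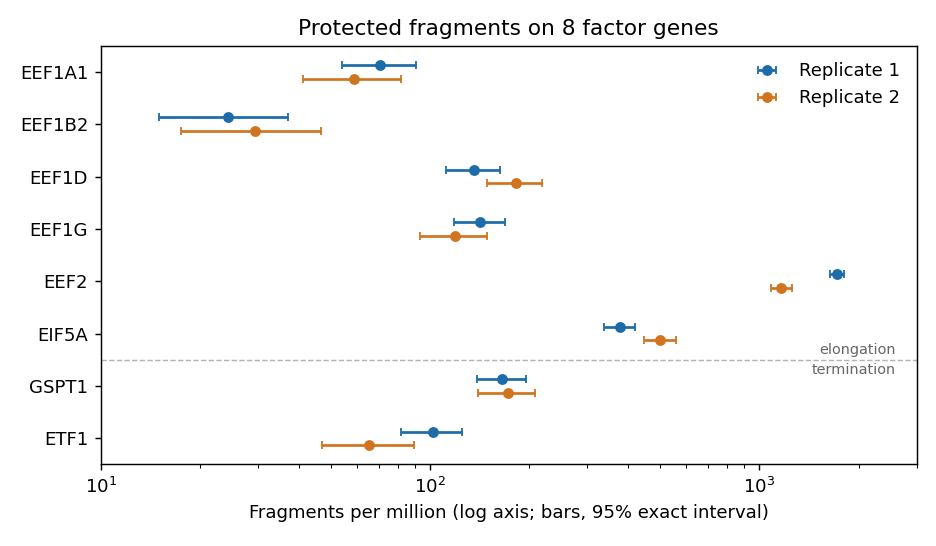
CPM (log axis) on each of the 8 factor genes in replicate 1 (blue) and replicate 2 (orange); bars are 95% exact intervals for counting error. EEF2, at 1723 and 1165 CPM, and EIF5A, at 377 and 500 CPM, lie above the other 6 genes in both libraries, and EEF1B2, at 24.3 and 29.4 CPM, lies lowest.

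EEF1A1 encodes the main form of eEF1A, a protein known as one of the most abundant in growing cells. Its ID, ENSG00000156508.13, held 61 fragments in replicate 1 and 36 in replicate 2. These are 70.5 CPM (53.9 to 90.5) and 58.9 CPM (41.2 to 81.5), a mean of 64.7 CPM ± 8.17 (SD, n = 2). The intervals overlap, and replicate 1 is the higher of the pair. By fragments the gene stood at rank 2203 of all IDs in replicate 1 and 2464 in replicate 2. RefSeq lists 50 numbered pseudogenes of EEF1A1, more than for any of the other 7 genes, which have between 0 and 8. How the authors' counting treated fragments that match several copies is not given in the sources used here, so the EEF1A1 count is uncertain and the part of these copies in it was not tested.

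The eEF1B complex, which recharges eEF1A with GTP, is covered by 3 genes: EEF1B2 and EEF1D for the exchange subunits and EEF1G for the structural subunit. EEF1B2 (ENSG00000114942.9) had the fewest fragments of all 8 genes, 21 in replicate 1 and 18 in replicate 2. That is 24.3 CPM (15 to 37.1) and 29.4 CPM (17.5 to 46.5), a mean of 26.9 CPM ± 3.67 (SD, n = 2). The intervals overlap widely, and a count this small cannot show a moderate difference between the libraries. RefSeq lists 8 numbered pseudogenes of EEF1B2, and the small nucleolar RNA genes SNORD51 and SNORA41 lie within its span. The part of these copies and nested genes in this small count was not tested.

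EEF1D (ENSG00000104529.13) held 117.5 fragments in replicate 1 and 111 in replicate 2. Its level was 136 CPM (112 to 163) and 182 CPM (149 to 219), a mean of 159 CPM ± 32.4 (SD, n = 2). Replicate 2 was the higher library for this exchange subunit, although its raw count was slightly lower. EEF1G (ENSG00000254772.5) held 123 and 72.5 fragments, or 142 CPM (118 to 169) and 119 CPM (92.9 to 149), a mean of 130 CPM ± 16.6 (SD, n = 2). For this structural subunit replicate 1 was the higher library, and the intervals overlap. RefSeq lists 8 numbered pseudogenes for EEF1D and 8 for EEF1G, and the microRNA gene MIR6747 overlaps EEF1G. Their part in the counts was not tested.

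The 4 eEF1 genes together took 322.5 fragments in replicate 1 and 237.5 in replicate 2. Their sum, 372 and 389 CPM, differed less between the libraries than EEF1D did alone. EEF1B2, EEF1D and EEF1G, whose proteins work in the same complex, summed to 302 and 330 CPM.

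EEF2 (ENSG00000167658.11), the translocase, held 1492 fragments in replicate 1 and 712 in replicate 2. Its level was 1723 CPM (1637 to 1813) in replicate 1 and 1165 CPM (1081 to 1254) in replicate 2, a mean of 1444 CPM ± 395 (SD, n = 2). Replicate 1 was the higher library, and the counting intervals do not overlap. EEF2 ranked 46 among all IDs in replicate 1 and 75 in replicate 2, and RefSeq lists 0 numbered pseudogenes for it. The small nucleolar RNA gene SNORD37 lies within the span of EEF2, and its part in the count was not tested.

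EIF5A (ENSG00000132507.13), named for initiation but acting in elongation and termination, held 326 fragments in replicate 1 and 305.5 in replicate 2. Its level was 377 CPM (337 to 420) and 500 CPM (445 to 559), a mean of 438 CPM ± 87.2 (SD, n = 2). Here replicate 2 was the higher library, the opposite of EEF2, and the intervals do not overlap. EIF5A ranked 358 and 229 among all IDs, and RefSeq lists 3 numbered pseudogenes of it, whose part in the count was not tested.

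Both release factor genes took fewer fragments than EIF5A. GSPT1 (ENSG00000103342.8), the gene of the GTPase eRF3a, held 143 fragments in replicate 1 and 105 in replicate 2, or 165 CPM (139 to 195) and 172 CPM (140 to 208). Its mean was 168 CPM ± 4.68 (SD, n = 2). The libraries lie close together, but both intervals are far wider than this SD, so the closeness does not show a stable level. ETF1 (ENSG00000120705.8), the gene of the stop-codon reader eRF1, held 88 and 40 fragments, or 102 CPM (81.5 to 125) and 65.4 CPM (46.8 to 89.1). Its mean was 83.5 CPM ± 25.6 (SD, n = 2), with replicate 1 the higher library and overlapping intervals. RefSeq lists 0 numbered pseudogenes of GSPT1 and 3 of ETF1, and the pseudogene COX6CP1 overlaps GSPT1. The part of these pseudogenes in the counts was not tested.

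By mean CPM the order was EEF2, EIF5A, GSPT1, EEF1D, EEF1G, ETF1, EEF1A1 and EEF1B2. The ranges over the 2 libraries separated EEF2 from EIF5A, EIF5A from GSPT1, EEF1G from ETF1 and EEF1A1 from EEF1B2. GSPT1 and EEF1D overlapped and changed places between the libraries, as did EEF1D and EEF1G. ETF1 and EEF1A1 kept their places in both libraries, but their ranges overlapped. Among these genes 3 values were not whole, 117.5 for EEF1D, 72.5 for EEF1G and 305.5 for EIF5A, and the rule that gave such values is not stated in the sources used here. Over all IDs above 0, the share of values that were not whole was 15.2% for replicate 1 and 13.9% for replicate 2.

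**Figure D2:**
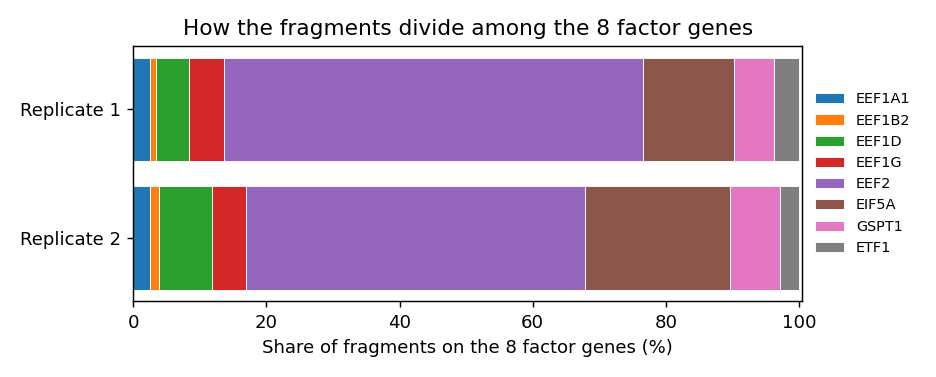
Share (%) of the fragments on the 8 factor genes that fell on each gene, as 1 stacked bar per library. The EEF2 segment falls from 62.9% in replicate 1 to 50.9% in replicate 2, while the EIF5A segment widens from 13.7% to 21.8% and the EEF1A1 segment is 2.57% in both.

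As a group the 8 genes held 0.274% (0.263 to 0.285) of all fragments in replicate 1 and 0.229% (0.217 to 0.241) in replicate 2. In CPM that was 2739 and 2290, a mean of 2515 ± 317 (SD, n = 2). EEF2 set the direction of this sum: the other 7 genes took 1016 CPM in replicate 1 and 1126 in replicate 2, a mean of 1071 ± 77.6 (SD, n = 2). The 6 elongation genes took 2472 and 2053 CPM, and the 2 termination genes took 267 and 237 CPM. Within the 8 genes, the shares of EEF2 were 62.9% (60.9 to 64.9) and 50.9% (48.2 to 53.5), intervals that do not overlap. The shares of EIF5A, 13.7% (12.4 to 15.2) and 21.8% (19.7 to 24.1), and of EEF1D, 4.95% (4.12 to 5.91) and 7.93% (6.57 to 9.47), did not overlap either and lay higher in replicate 2. Shares are parts of one whole, so a lower share of EEF2 by itself leaves a higher summed share for the other genes. In CPM the intervals of EEF1D, 112 to 163 and 149 to 219, do overlap.

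The next comparison set the 2 libraries against each other after TMM scaling, which removes the pull of a few very abundant IDs on library size. It compares single libraries and not conditions, and no p-value was computed. Of the 6 genes that reached 100 fragments over both libraries, 3 had an interval that excluded equal levels: EEF1D and EIF5A were higher in replicate 2 and EEF2 was higher in replicate 1. Among all 2241 IDs with that count, 37.9% had such an interval, 15.6% with the higher level in replicate 2 and 22.3% in replicate 1, so differences beyond counting error were common between these libraries. No interval among the 6 genes lay wholly beyond 2-fold, where the background was 0.803% of the IDs. EEF1A1 and EEF1B2, with 97 and 39 summed counts, were below the minimum.

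EEF2 had a log2 ratio of replicate 2 over replicate 1 of -0.46 (-0.59 to -0.33), a 1.37-fold difference, and 17.7% of the tested IDs had a lower ratio. EIF5A had a log2 ratio of 0.52 (0.29 to 0.75) and EEF1D one of 0.52 (0.14 to 0.91). These lie toward the upper end, with 89% and 89.2% of the tested IDs lower. ETF1 had a log2 ratio of -0.53 (-1.10 to 0.03), as large as that of EEF2 but from 128 summed counts. Its interval just includes equal levels, and with scaling by library size the value was -0.64 (-1.21 to -0.08), which excludes them. GSPT1 stood at 0.17 (-0.21 to 0.54) and EEF1G at -0.16 (-0.60 to 0.27), both within counting error of equal levels.

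The sparse genes were less certain. EEF1A1 had a log2 ratio of -0.15 (-0.79 to 0.47) and EEF1B2 one of 0.39 (-0.60 to 1.37). The interval of EEF1B2 includes both equal levels and a level in replicate 2 more than 2-fold higher. Across the 6 genes past the minimum the median absolute log2 ratio was 0.49, where all 2241 IDs had 0.3, and 3 genes lay in each direction. The 3 genes with a pyrimidine run from base 1 had ratios of -0.15 for EEF1A1, 0.39 for EEF1B2 and -0.46 for EEF2. This grouping was made after the windows had been seen. Only the interval of EEF2 excludes 0, and EEF1A1 and EEF1B2 were below the minimum count. Whether genes with such a run share a direction was therefore not tested. With library sizes used for scaling instead, the median log2 ratio of the 2241 IDs moves by -0.11, from -0.07 to -0.18, and no gene of the 8 changed direction with it.

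**Figure D3:**
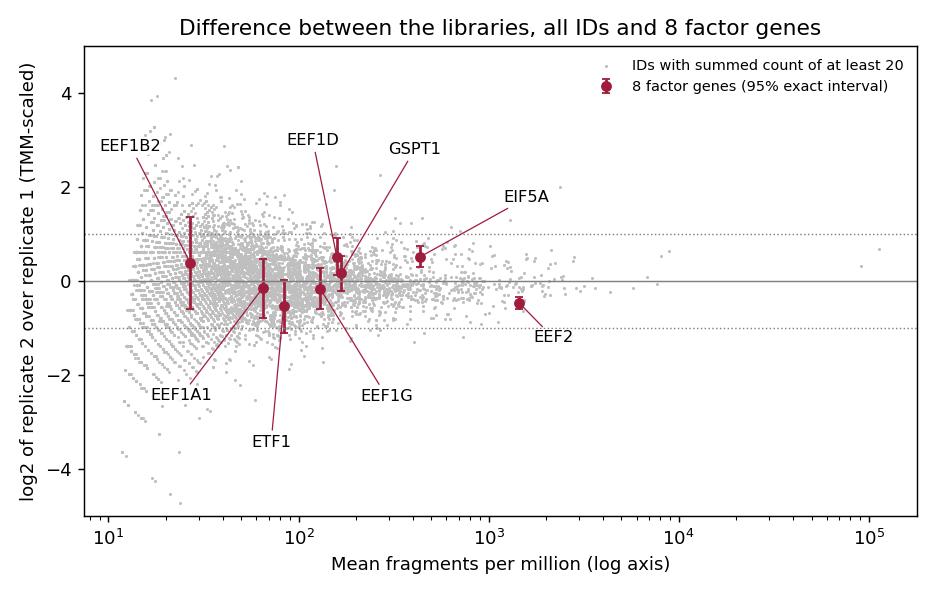
Log2 of replicate 2 over replicate 1 after TMM scaling against mean CPM (log axis), for all IDs that reached 20 fragments over both libraries and were above 0 in each (grey) and for the 8 factor genes (red, bars are 95% exact intervals); dotted lines mark 2-fold. EIF5A (0.52) and EEF2 (-0.46) lie on opposite sides of 0 with intervals that exclude it, and EEF1B2 has the widest interval.

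How far the fragments on the factor genes kept a constant proportion to each other was then measured for 8 pairs chosen by role. The change of a pair's fragment ratio from replicate 1 to replicate 2 needs no coding length and no library scaling, since both cancel. For 3 of the 8 pairs the interval excluded no change. Among all pairs of the 2241 tested IDs, 38.9% had an interval that excluded no change by a normal approximation on the log scale, a background added after the data were seen, so such changes were common. The 8 pairs also include sums of genes and EEF1A1 and EEF1B2, which were below the minimum, so this background of single IDs does not match them. For each EEF2 fragment there were 0.218 EIF5A fragments in replicate 1 and 0.429 in replicate 2, a 1.97-fold change (1.64 to 2.36). The fragments on EIF5A and EEF2 thus changed in proportion between the 2 control libraries. A change of this size was not particular to them, as 14.1% of all pairs of tested IDs changed at least 2-fold.

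Within the exchange complex, EEF1D over EEF1G went from 0.955 to 1.53, a 1.61-fold change (1.07 to 2.42). For the release factors, GSPT1 over ETF1 went from 1.62 to 2.62, also a 1.61-fold change (1.01 to 2.61). Both lower bounds are close to no change, and with 99% intervals only EIF5A over EEF2 remained.

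The other 5 pairs had intervals that include no change. EEF1B2 over EEF1G changed 1.46-fold (0.685 to 3.1) and EEF1B2 over EEF1D 0.912-fold (0.433 to 1.9), too wide to tell whether the fragments on these genes kept their proportion. EEF1A1 over the sum of the 3 eEF1B genes changed 0.766-fold (0.473 to 1.23), and EEF1A1 over EEF2 changed 1.24-fold (0.788 to 1.92). All elongation genes over both termination genes went from 9.27 to 8.66, a 0.934-fold change (0.747 to 1.17).

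Such shifts were also frequent among other IDs. Among the 15 pairs that the 6 genes with at least 100 summed counts can form, 8 changed at least 1.5-fold and 2 at least 2-fold, and 8 had a normal interval that excluded no change. Among all 2509920 pairs of the 2241 tested IDs, 37.5% changed at least 1.5-fold, 14.1% changed at least 2-fold and 38.9% had such an interval. The median change was 1.54-fold for the 15 pairs and 1.36-fold for all pairs. Pairs that share a gene are not independent of each other.

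**Figure D4:**
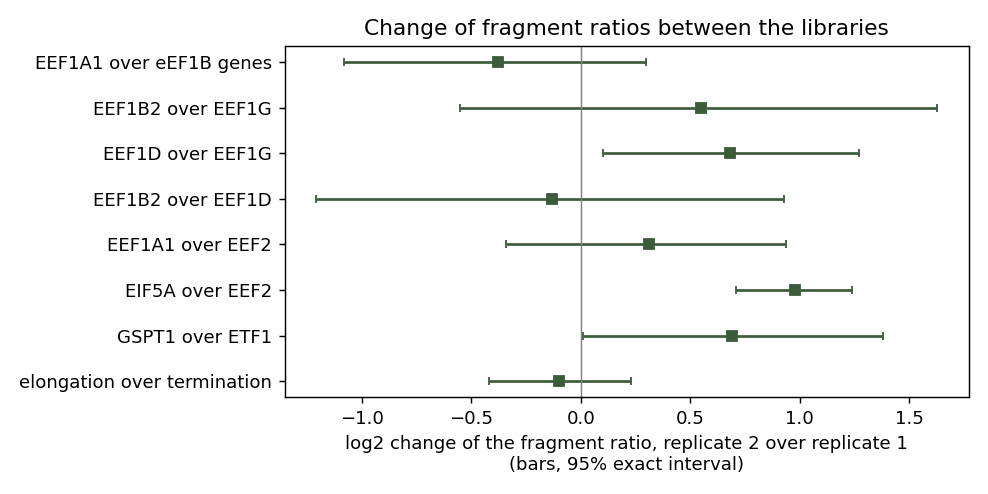
Log2 change of the fragment ratio of 8 pairs of factor genes from replicate 1 to replicate 2 (squares) with 95% exact intervals (bars); 0 means the same proportion in both libraries. EIF5A over EEF2 lies furthest from 0, at 0.98, and elongation over termination lies at -0.10 with an interval that spans 0.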

How the data were processed

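The authors deposited estimated counts of 27 to 29 nt fragments per Ensembl gene ID, unscaled, per the labels; some values are not whole (by more than 0.001). Per the submitters' processing notes, reads were placed on hg19. The sources used here do not give the aligner, counting tool, annotation or strand setting. Shares and CPM took each deposited value over its library's total, with Clopper-Pearson intervals. Ratios used values rounded to whole numbers, TMM factors (edgeR 4.0.16, R 4.3.3) over IDs with at least 20 summed counts, and conditional exact binomial intervals. Pair changes are conditional odds ratios with exact intervals (scipy 1.17.1). The ratio step was tested on simulated counts with counting noise only and changes larger than those of the 8 genes. That test cannot show that the intervals hold for these libraries. Levels per codon, planned from protein lengths, were not computed, and within-library ratios per codon were replaced by the change of the ratio between libraries. The named genes are the 8 on the list; the list's rule uses no measured value, but the genes and tests were chosen with earlier results of these data known; other pathway genes could not be paired with IDs, as the RefSeq gene table used here lists an Ensembl ID for 0 of 59792 genes. The single group allowed no contrast between conditions. Alternatives were DESeq2 1.42.0 and library-size scaling, other count minimums, fold limits and intervals, rounding down, and each library left out.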

Additional observations from a re-analysis of the deposited data

How the results depend on the processing

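The summed level of the 8 genes, 2515 CPM, was 3154 CPM with library totals that omit the 2 highest IDs, a rise that follows from the smaller total, and 1071 CPM without EEF2, an alternative chosen after seeing the data. Leaving out 1 library gave 2290 to 2739 CPM. The count of pairs whose ratio changed, 3, became 1 with 99% intervals, because wider intervals include no change for EEF1D over EEF1G and GSPT1 over ETF1. Of the 6 genes with at least 100 summed counts, 3 had an interval that excluded equal levels, and 4 with library-size scaling or TMM without a filter on low counts, where ETF1 was added at -0.64 and -0.61; over all IDs, library-size scaling raised the same count from 850 to 972 of 2241. For all IDs, 18 lay wholly beyond 2-fold; the number was 95 at 1.5-fold, 85 with at least 20 summed counts, 6 with at least 500 and 11 with 99% intervals. Those 850 became 1834 with at least 20 summed counts and 222 with at least 500. The number of IDs tested changes with the minimum, so counts at different minimums cannot be compared as rates. No log2 ratio of the 8 genes changed direction under the scalings run. For pair changes, in which scaling cancels, only rounding down and 99% intervals were run, which bear little on direction. Alternatives in coding length were not run, since levels per codon were not computed. No paired analysis was possible because the series holds 1 group. Depth limits EEF1B2 and EEF1A1 most.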
